A study of Mus musculus with 6 samples.

Results

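The α2δ subunits of voltage-gated calcium channels are encoded in the mouse by 4 genes, Cacna2d1, Cacna2d2, Cacna2d3 and Cacna2d4. The table of gene-level values was searched for these 4 symbols through its Ensembl identifiers, and each was found once among 54532 gene rows. The search used no measured value, but the family was chosen with earlier results of these data known. Of the 4, Cacna2d1, Cacna2d2 and Cacna2d3 passed the filter on low values (10 or more in at least 3 libraries), which 18410 genes passed in all. Cacna2d4 did not pass and is described by its reads.

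An α2δ subunit is made as 1 precursor protein that is cut into α2 and δ parts, which stay joined and sit on the outer face of the membrane. It helps high-voltage-activated calcium channels reach the cell surface and the presynaptic terminal, and so raises calcium entry and transmitter release. In sensory neurons α2δ-1, the product of Cacna2d1, is the binding site of the pain drugs gabapentin and pregabalin. α2δ-2 binds these drugs too, whereas α2δ-3 and α2δ-4 do not. α2δ-1 is also known to bind thrombospondins and NMDA-type glutamate receptors, and in skeletal muscle it is part of the channel that triggers contraction.

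RNA-seq was read from whole dorsal root ganglia, which hold the cell bodies of primary sensory neurons together with glia, vessels and connective tissue, of C57BL/6 mice aged 8 weeks. The 3 knockout libraries (Hdac2 cKO, genotype Adv-Cre+/hdac2-flop++) came from mice with floxed Hdac2 in which the sensory neuron promoter of Advillin drove Cre recombinase. The 3 control libraries (called WT, genotype hdac2-flop++) came from littermates that carried the same floxed alleles without Cre. The groups thus differed by Cre as well as by loss of Hdac2, a histone deacetylase gene, and the design held no group with Cre alone. The series asked whether HDAC2 in sensory neurons restrains Cacna2d1 expression. Expression is given in normalised read counts, that is, gene reads scaled by 1 factor per library, and values of single libraries follow the numbers 1, 2 and 3. A log2 fold change is the knockout mean minus the control mean of log2 (value + 1), which understates differences of low genes. In whole ganglia fewer cells of a type and less RNA per cell cannot be told apart. Hdac2 itself read 2816, 1715 and 3498 in the controls against 499, 372 and 535 in the knockouts, lower in every knockout library (log2 fold change -2.47, SE 0.31, limma adjusted p = 0.927, DESeq2 adjusted p = 1.8e-08).

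Total reads per library ranged from 18943595 to 42070531. WT 2 was the shallowest library and held 42.4% even counts among genes with 1 to 20 reads, against 60.2 to 64.4% in the other 5. WT 3 stood apart in many genes, and array weights, which estimate how closely a library follows its group, gave it 0.101, against 0.402 to 4.17 elsewhere. Y-linked genes were expressed in WT 2, WT 3 and Hdac2 cKO 2, so the sexes were mixed within groups. Where leaving out WT 3 turned a log2 difference or list median or moved it by over 1.5 times, the value without WT 3 stands beside it.

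The genes lie on different chromosomes and differ greatly in span (GRCm38, the assembly of mm10, GENCODE M21). Cacna2d1 (ENSMUSG00000040118) covers 440 kb on chromosome 5, from 15934691 to 16374511 on the plus strand. Cacna2d2 (ENSMUSG00000010066) covers 130 kb on chromosome 9, from 107399612 to 107529343 on the plus strand. Cacna2d3 (ENSMUSG00000021991) is the longest at 817 kb, on chromosome 14 from 28904943 to 29721864 on the minus strand. Cacna2d4 (ENSMUSG00000041460) covers 116 kb on chromosome 6, from 119236526 to 119352407 on the plus strand.

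The stretches before the start sites of Cacna2d1 and Cacna2d3 are shown because the study's question is about repression of Cacna2d1, and because these members differed in whether their groups overlapped. Each line holds the 250 bases 5′ of the RefSeq start site (GRCm38.p6), and capitals mark the GC box, GGGCGG on either strand, a sequence known to bind the SP1 family of activators. Cacna2d1 is at chr5:15934441-15934690 on the plus strand and Cacna2d3 at chr14:29721865-29722114 on the minus strand.
Cacna2d1: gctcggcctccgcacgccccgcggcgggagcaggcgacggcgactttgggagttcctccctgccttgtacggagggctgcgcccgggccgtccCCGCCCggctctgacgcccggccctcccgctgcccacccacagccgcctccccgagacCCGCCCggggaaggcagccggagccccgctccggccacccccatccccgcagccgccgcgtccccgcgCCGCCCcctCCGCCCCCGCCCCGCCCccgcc
Cacna2d3: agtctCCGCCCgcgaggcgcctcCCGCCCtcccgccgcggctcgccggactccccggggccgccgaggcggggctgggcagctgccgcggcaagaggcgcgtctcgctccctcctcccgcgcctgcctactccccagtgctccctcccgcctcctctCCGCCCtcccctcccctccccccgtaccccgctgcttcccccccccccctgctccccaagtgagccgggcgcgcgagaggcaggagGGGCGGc

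Both stretches were rich in GC and in CpG, the dinucleotide that carries DNA methylation. Cacna2d1 had 82.4% GC, 36 CpG and 6 GC boxes, all 6 read on the opposite strand. Cacna2d3 had 80.0% GC, 30 CpG and 4 GC boxes. The Cacna2d2 window, not printed because it lies within exons of the GENCODE annotation, had 74.4% GC, 34 CpG and 1 GC box. Over all 32851 RefSeq windows of this length the medians were 52.4% GC and 6 CpG, and 32.7% of windows held at least 1 GC box. At least 6 boxes were present in 0.886% of windows and at least 4 in 4.09%. These are letter matches in the reference, and no binding was measured.

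Every knockout library had more Cacna2d1 than every control library. Its control values were 5862, 4708 and 3725, and its knockout values 6326, 6999.9 and 6579. The groups did not overlap, but the highest WT library lay close below the lowest knockout library. The knockout libraries were also closer to each other: the coefficient of variation was 5.13% in Hdac2 cKO and 22.4% in WT.

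The log2 fold change of Cacna2d1 was 0.50 (SE 0.22), a ratio of 1.41 with a 95% confidence interval from 0.990 to 2.02. Over all genes limma gave an adjusted p of 0.927 (unadjusted p = 0.0553), which did not pass, and Cacna2d1 ranked 390 by p. An exact permutation test, two-sided, returned 0.1, and 3 libraries against 3 allow no smaller p. Of all genes tested, 17.4% had a log2 fold change at least as high as that of Cacna2d1. The ratio of same-numbered libraries, knockout over WT, was 1.08, 1.49 and 1.77 for numbers 1, 2 and 3, so it was smallest for the libraries numbered 1.

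Cacna2d2, whose loss causes ataxia and seizures in the ducky mouse, varied more between libraries than between groups. Its values were 1595, 2796 and 641 normalised read counts in WT 1, 2 and 3. In Hdac2 cKO 1, 2 and 3 they were 1902, 1828 and 3097. The groups overlapped widely: WT 3 was the lowest library and WT 2 exceeded knockout libraries 1 and 2. The fitted log2 fold change of 0.64 had an SE of 0.52 (limma adjusted p = 0.927), and its 95% interval as a ratio ran from 0.666 to 3.63. It was 0.06 with WT 3 left out, 1.13 with WT 2 left out and -0.18 with both libraries numbered 3 left out.

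Cacna2d3, known for roles in heat pain and hearing, was the member whose mean was lower in the knockout. Its values were 1482, 1954 and 2212 normalised read counts in WT 1, 2 and 3. In Hdac2 cKO 1, 2 and 3 they were 1394, 1323 and 2162. The groups overlapped, as Hdac2 cKO 3 lay above WT 1 and WT 2. The fitted log2 fold change of -0.23 had an SE of 0.27 (limma adjusted p = 0.927), a ratio of 0.854 with a 95% interval from 0.550 to 1.33. Within every same-numbered pair the knockout library was the lower one, with ratios of 0.941, 0.677 and 0.977. It was -0.10 with either WT 3 or Hdac2 cKO 2 left out, -0.13 without Hdac2 cKO 1, -0.39 without WT 1 and -0.45 without Hdac2 cKO 3.

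Cacna2d4, the member best known from retinal photoreceptors, was close to the limit of detection. It had 16, 5 and 0 reads in WT 1, 2 and 3 and 10, 6 and 10 reads in Hdac2 cKO 1, 2 and 3. The means were 7.19 ± 7.06 and 7.66 ± 2.18 normalised read counts (SD, n = 3 each). The 0 in WT 3 has an exact Poisson 95% interval up to 3.69 reads, or 3.77 normalised read counts. The 16 reads of WT 1 have such an interval from 9.15 to 26.0 reads. Both intervals cover counting error only and treat reads as independent. Even counts made up 60.2 to 64.4% of counts from 1 to 20 in the libraries other than WT 2. Reads may thus not be independent, and the intervals may be too narrow. A difference between the groups was not detectable at this depth.

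**Figure D1:**
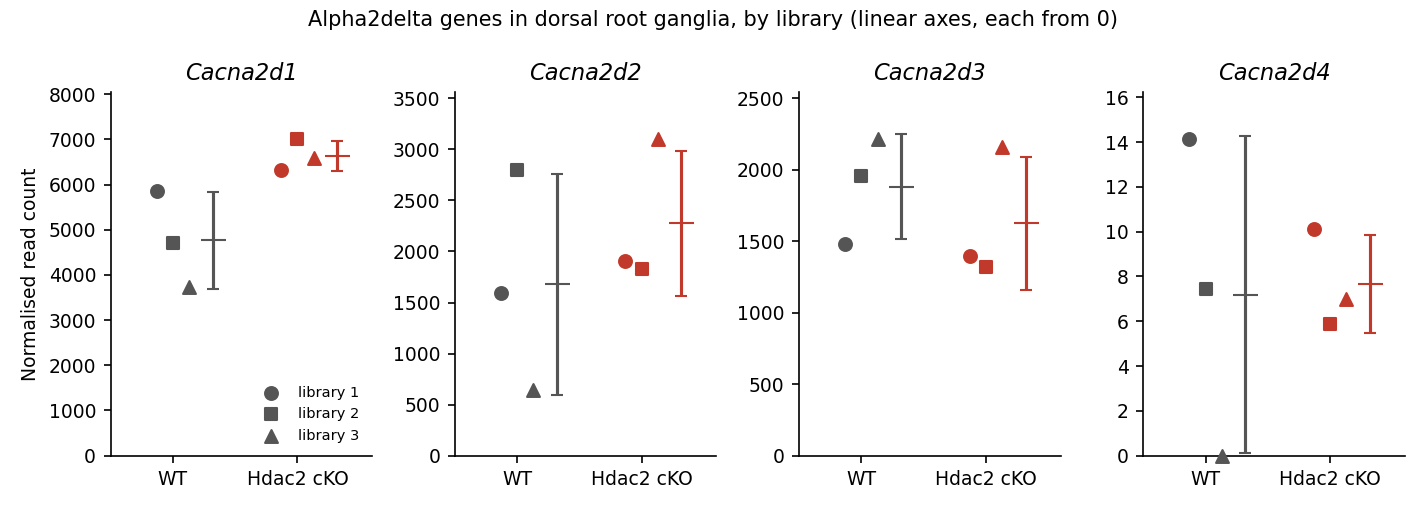
Normalised read counts of the 4 α2δ genes (linear axes, each from 0) in 3 WT and 3 Hdac2 cKO libraries; symbols give the library number, and the bar beside each group is the mean with SD. The Cacna2d1 groups do not overlap, at 3725 to 5862 in WT and 6326 to 6999.9 in Hdac2 cKO, whereas those of the other genes do.

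Of the 3 members tested, 0 were called by limma at an adjusted p of 0.05, as was 0% of all genes. At an unadjusted p under 0.05 limma on all libraries, without pairing or weights, gave 0 members too, against 0.875% of all genes higher and 0.978% lower. With libraries paired by number, Cacna2d1 reached an unadjusted p of 0.0457 in limma, where 3.28% of all genes were higher at that threshold, and of 0.0368 in DESeq2. Its unadjusted p was also under 0.05 with array weights (0.00195 in limma) and without WT 1 (0.0222 in limma). Under that threshold were 5175 of 18410 genes with array weights, 1147 without WT 1 and 1397 in DESeq2 with pairs. Cacna2d3, lower in the knockout, had an unadjusted limma p of 0.0110 with array weights. Cacna2d2, higher, had one of 0.0487 without WT 2, where 299 of 18410 genes were under that threshold. DESeq2 called 0 of the 3, where it called 0.136% of all genes, and edgeR called 0. Groups that did not overlap, higher in the knockout, were found for 1 member of 3, and for 4.63% of all genes tested. The log2 fold change was above 0 for 2 of the 3 members and for 55.3% of all genes, with medians of 0.50 and 0.06. Without WT 3 the medians were 0.06 over the members and -0.01 over all genes. Array weights called 1.69% of all genes higher and DESeq2 with a replicate block called 0.418% in either direction, with 0 members among them.

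Compared per kilobase of exon, Cacna2d1 was the most abundant member in every library. It averaged 384 ± 86.1 normalised read counts per kb in the controls and 534 ± 27.4 in the knockouts (SD, 3 libraries per group). This placed its level over all 6 libraries above 82.0% of the genes tested. Cacna2d2 followed with 211 ± 136 and 286 ± 89.6 per kb, and Cacna2d3 with 216 ± 42.4 and 187 ± 53.3 (WT and Hdac2 cKO, SD, n = 3 each). These neighbours in the order did not differ beyond their spread, and their order changed between groups and with the gene length used. With the longest coding transcript as length, Cacna2d3 stood above Cacna2d2 in both groups, at 509 against 303 per kb in WT and at 440.1 against 411 in Hdac2 cKO. Cacna2d4 was at 0.758 per kb in WT and 0.809 in Hdac2 cKO.

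The summed level of the family was 844, 956 and 634 normalised read counts per kb in WT 1, 2 and 3. It was 909.8, 946 and 1168 in Hdac2 cKO 1, 2 and 3. The groups overlapped, since WT 2 exceeded knockout libraries 1 and 2 (exact two-sided permutation p = 0.3, n = 3 each). The difference of the mean sums was 197 per kb, and 108 without WT 3, 116 without Hdac2 cKO 3 and 27.9 without both. Cacna2d1 made up 55.9, 39.7 and 47.3% of this sum in the controls against 56.0, 59.6 and 45.4% in the knockouts. Its share did not separate the groups (exact permutation p = 0.4, Benjamini-Hochberg adjusted p = 0.8 over the 4 members).

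WT 3 had the most unusual makeup of the 6 libraries. Cacna2d2 supplied 12.7% of the family there, against 23.8 to 36.8% elsewhere, and Cacna2d3 supplied 40.0%, against 16.0 to 23.4% elsewhere. The share of Cacna2d3 averaged 27.9 ± 10.6% in controls and 18.3 ± 2.66% in knockouts (SD, n = 3 per group, exact permutation p = 0.2, adjusted p = 0.8). Without WT 3 the mean difference in that share was -3.51 percentage points instead of -9.57. The log2 ratio of Cacna2d1 to Cacna2d3, which does not depend on the size factors apart from the added 1, was 1.98, 1.27 and 0.75 in the controls against 2.18, 2.40 and 1.61 in the knockouts. It was higher on average in the knockout by 0.73, with overlap through WT 1 (exact permutation p = 0.2, adjusted p = 0.45 over 3 pairs of members), and by 0.44 without WT 3.

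**Figure D2:**
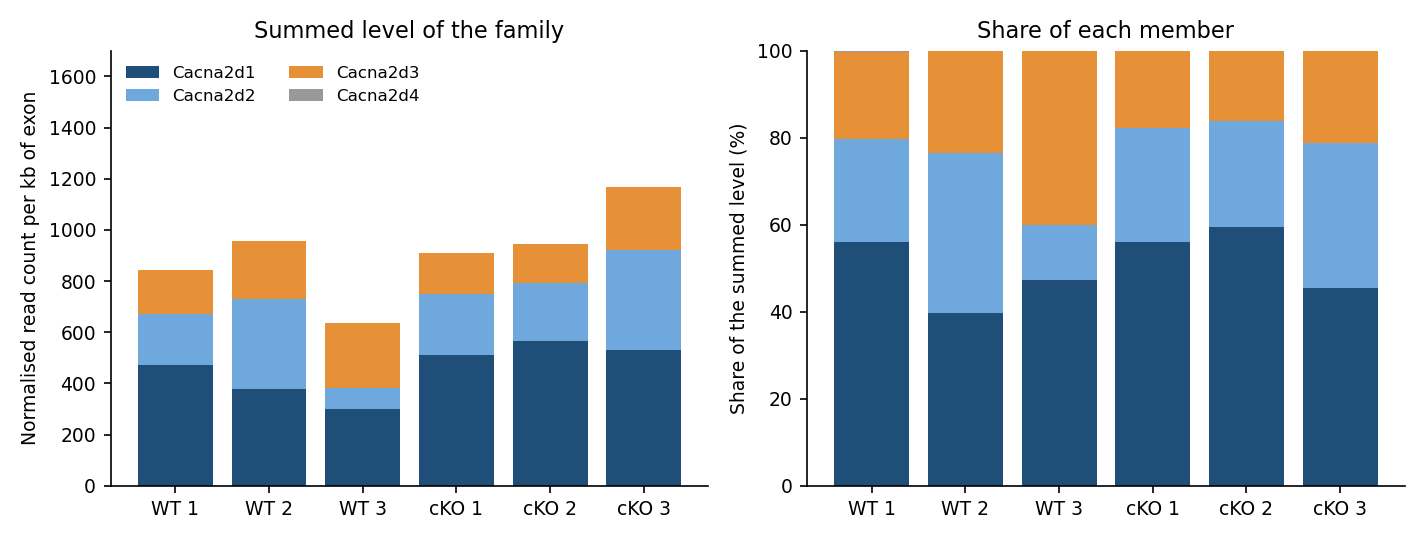
Left, the summed level of the 4 α2δ genes per library in normalised read counts per kb of exon; right, the share of each gene in that sum in percent. Cacna2d1 is the largest part in every library, Cacna2d4 is too small to see, and WT 3 has the lowest sum (634) and the largest Cacna2d3 share (40.0%).

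The size of the Cacna2d1 difference was compared across 22 other settings. It was above 0 in all 22, from 0.31 to 0.66 on the log2 scale, and passed in none, with adjusted p from 0.0522 to 1.00. In many of these the sign was fixed beforehand, because the groups did not overlap. Leaving out, pairing or weighting libraries, or changing the pseudocount or the filter, could not turn it. The lowest adjusted p was that of limma with array weights, under which WT 2 carries most of the control mean and 567 genes are called in all. The log2 fold change of Cacna2d1 was 0.34 without WT 3, 0.34 with correction for GC content and 0.31 with correction for gene length. Without WT 1, the highest control library, it was 0.66. With the replicate block it was 0.50 (limma adjusted p = 0.674).

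**Figure D3:**
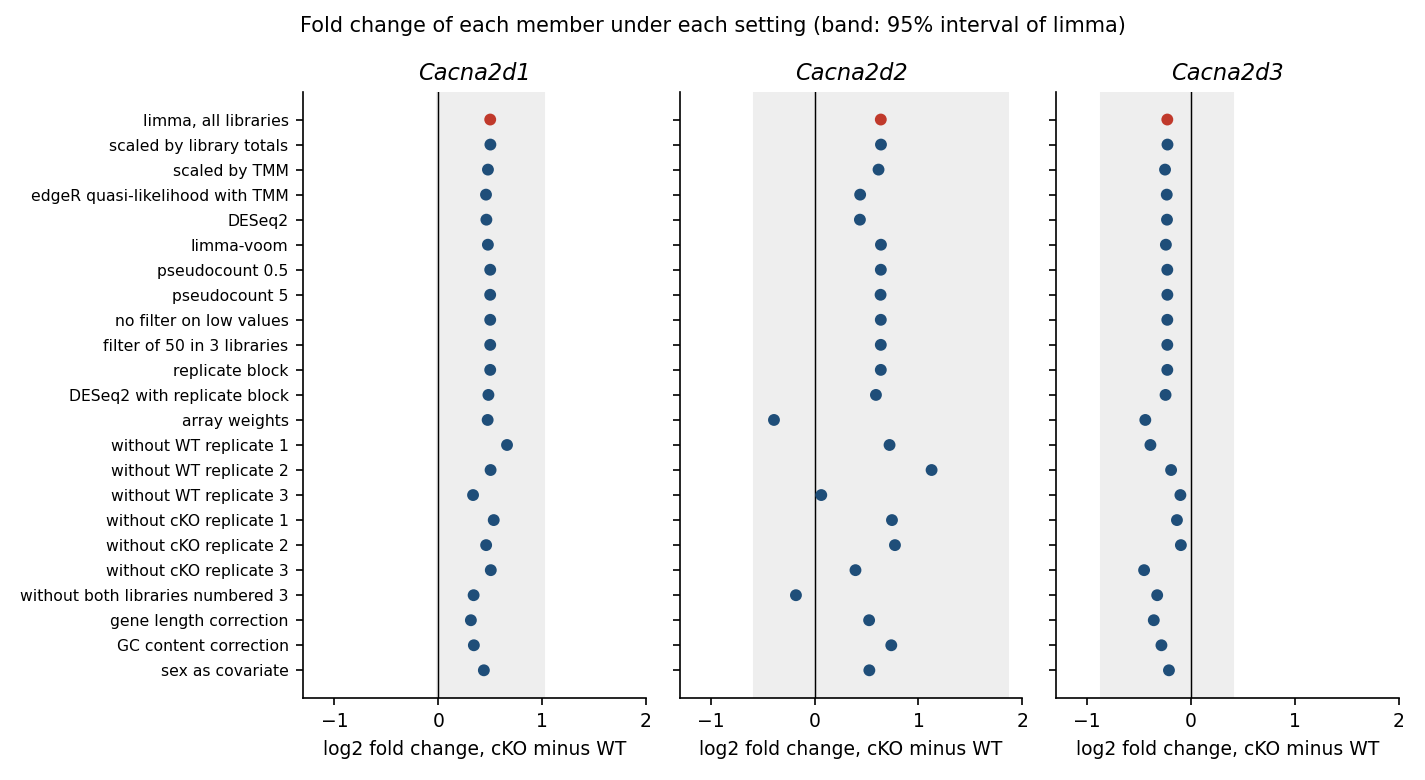
Log2 fold change, Hdac2 cKO minus WT, of Cacna2d1, Cacna2d2 and Cacna2d3 under limma on all libraries (red) and 22 other settings (blue), with the 95% confidence interval of the former as a band. Cacna2d1 stays between 0.31 and 0.66, Cacna2d3 between -0.45 and -0.10, and Cacna2d2 ranges from -0.39 to 1.13.

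The ganglion's other cells were read through marker lists. For comparison, 55.3% of all genes tested were above 0 and limma called 0% of them. Pan-neuronal markers such as Uchl1, Tubb3 and Prph had 6 of 12 members above 0 and 6 below, with a median log2 fold change of 0.05 (0.10 without WT 3). For 3 of the 12, Elavl4, Isl1 and Stmn2, the groups did not overlap, higher in the knockout, against 4.63% of all genes, and for 0 in the other direction. The log2 ratio of Cacna2d1 to the mean of these markers was -1.08, -1.73 and -2.23 in the controls against -1.13, -0.94 and -1.55 in the knockouts. On this scale the groups overlapped, because WT 1 lay above knockout libraries 1 and 3. The mean difference was 0.48 (exact permutation p = 0.3, n = 3 each), and 0.20 without WT 3.

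Small-diameter neurons of the non-peptidergic and itch classes were read through 12 markers, which had 9 of 12 members above 0 and a median log2 fold change of 0.47 (0.23 without WT 3). Their groups did not overlap, higher in the knockout, for 4 of 12 members, Mrgprd, Nts, Osmr and Il31ra, where 4.63% of all genes did so. Their summed level was 27732 to 30901 normalised read counts in WT and 32495 to 39775 in Hdac2 cKO, and no marker of the list was at 0 in any library. WT 3 had the lowest sum, as it had the lowest Cacna2d1. It also had the lowest sum of the markers of C-low-threshold mechanoreceptors, of endothelial and mural cells and of macrophages, so this was not particular to the list. Markers of large-diameter neurons had a median of -0.02 (-0.21 without WT 3), those of peptidergic nociceptors 0.33 and those of C-low-threshold mechanoreceptors 0.11 (-0.01 without WT 3). Groups did not overlap, higher in the knockout, for 1 of 11 large-diameter markers (Ntrk3) and 1 of 8 peptidergic markers (Adcyap1). They did not overlap, lower in the knockout, for 2 large-diameter markers (Calb2 and Runx3), against 3.91% of all genes. The part of these differences in the Cacna2d1 values was not tested.

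Skeletal muscle, in which Cacna2d1 is also expressed, gave differences of the opposite sign. All 16 muscle markers tested of 18 had lower means in the knockout (median log2 fold change -3.50), and groups did not overlap for 13, against 3.91% of all genes for that direction. Of these 13, Myh1, Myh2, Myh4, Myh7, Tnnt3, Tnni2, Tcap, Ckm and Cacna1s did not reach 10 in every knockout library. They thus needed WT libraries to pass the filter on low values, which favours that direction. Actn2, Ttn, Des and Mylpf were above 10 in every library. The summed level of the muscle list was 4442 to 12560.4 normalised read counts in WT and 496 to 1738 in Hdac2 cKO. Acta1 was at 81.8 to 2877 in WT and 11.2 to 323 in Hdac2 cKO, and of the 18 markers Tnnc2 was at 0 in all libraries but WT 2. Cacna2d1 was higher in the group whose muscle transcripts were lower, and the part of muscle in the Cacna2d1 values was not tested.

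Glial and blood markers differed between libraries too. Myelinating Schwann cell markers had 9 of 10 members below 0 and a median of -0.69, with sums of 244511 to 373794 in WT and 143131 to 231418 in Hdac2 cKO. Groups did not overlap, lower in the knockout, for 5 of these 10 and for 2 of 6 fibroblast markers, against 3.91% of all genes. Satellite glia markers had a median of -0.18 and fibroblast markers one of -0.49. The medians of endothelial and mural markers (0.17), macrophage markers (0.37) and lymphocyte and granulocyte markers (0.85) were -0.24, -0.16 and 0.21 without WT 3. Erythroid sums ran from 2696 to 51556 in WT and from 1305 to 75549 in Hdac2 cKO, high in WT 1, Hdac2 cKO 1 and Hdac2 cKO 2. Nerve injury genes had 8 of 10 members above 0 and a median of 0.31 (0.59 without WT 3). For 4 of them, Sprr1a, Npy, Ecel1 and Flrt3, the groups did not overlap, higher in the knockout, against 4.63% of all genes. Of these, Sprr1a, Npy and Ecel1 read at most 9.71, 10.4 and 12.4 in WT. They passed the filter on low values through the knockout libraries, which favours that direction. No marker in these lists passed limma's test, and their part in the α2δ values was not tested.

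**Figure D4:**
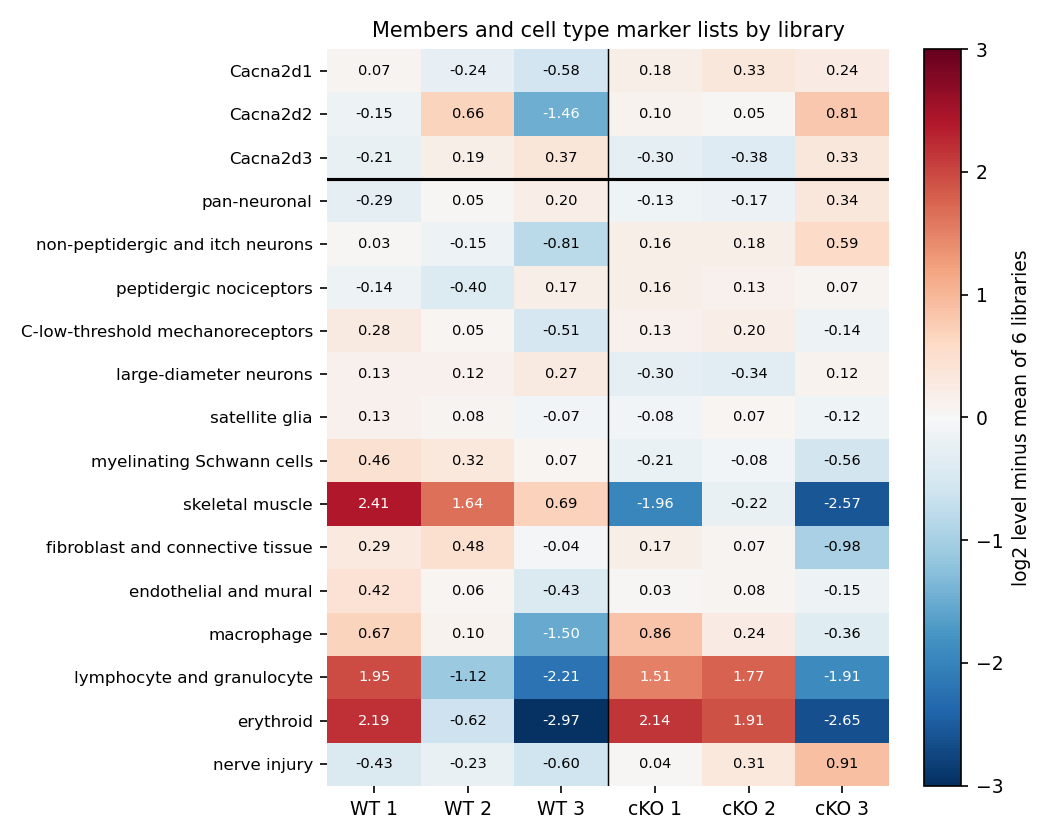
Log2 level of Cacna2d1, Cacna2d2, Cacna2d3 and, below the line, the mean log2 level of each marker list, as deviation from the mean of the 6 libraries (numbers and colour). Cacna2d1 is at -0.58 in WT 3 and above 0 in all knockout libraries, whereas skeletal muscle is above 0 in WT and below 0 in Hdac2 cKO.

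Cachd1 encodes an α2δ-like protein that also binds calcium channels. It read 875, 957 and 572 in the controls against 1051, 945 and 1076 in the knockouts. WT 3 was again the lowest library, and WT 2 lay above Hdac2 cKO 2. The log2 fold change was 0.38 (SE 0.25), or 0.16 without WT 3, and did not pass.

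The pore subunits form the channel itself, and those activated at high voltage are the partners of α2δ. Of 7 such genes 6 were tested and 0 passed, with 4 above 0 and a median log2 fold change of 0.14. Over all genes tested limma passed 0% too, and 55.3% were above 0. The same shares apply to the partner lists that follow. Cacna1b, the pore of the N-type channel that drives release from nociceptor terminals, averaged 3007 ± 427 in controls and 3341 ± 399 in knockouts (SD, n = 3 per group), a log2 fold change of 0.15 (SE 0.20). Cacna1c, an L-type pore, differed by 0.48 on the log2 scale (SE 0.41), and by 0.06 without WT 3. Cacna1a, the P/Q-type pore, differed by -0.22 (SE 0.39), and by 0.19 without WT 3, which held 4959 against 2030 and 2271 in the other WT libraries.

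Cacna1s, the pore of skeletal muscle, was the single pore gene whose groups did not overlap, where 3.91% of all genes were lower without overlap. It read 53.8, 40.2 and 38.8 in the controls against 6.06, 13.8 and 2.80 in the knockouts, lower like the other muscle markers. Cacna1s passed the filter on low values through WT. The T-type pores open at low voltage. Cacna1h, the main T-type pore of sensory neurons, averaged 1105 ± 229 in controls and 1135 ± 116 in knockouts (SD, n = 3 per group). The log2 fold change was -0.76 (SE 0.65) for Cacna1g and 0.24 (SE 0.35) for Cacna1i, the latter -0.07 without WT 3, and 0 of the 3 passed.

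The β subunits bind the pore from inside the cell. None of the 4 passed, 2 were above 0 and 2 below, and the median was -0.01 (-0.19 without WT 3). Cacnb3, the most abundant β gene per kb, read 7254, 9165 and 2517 in the controls against 6639, 6010.1 and 4908 in the knockouts. WT 3 was the lowest library, as for Cacna2d1 and Cacna2d2. The log2 fold changes were 0.20 for Cacnb4, -0.11 for Cacnb1 and -0.10 for Cacnb2, and without WT 3 they were -0.05, -0.34 and 0.13. Of the γ genes, several of which are better known as AMPA receptor auxiliary subunits, 6 of 8 were tested and 3 were above 0, with a median of -0.01 (0.04 without WT 3). Cacng5 read 531, 627 and 100.2 in the controls, lowest again in WT 3, and 564 to 590.3 in the knockouts. Cacng3, which was at 0 in WT 3, differed by 1.90 on the log2 scale (SE 1.45) with that library and by 0.09 without it. For Cacng4 it was -0.25 (SE 0.30), and -0.10 without WT 3.

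Thrombospondins are secreted ligands of α2δ-1 made largely by glia and connective tissue. All 5 genes were tested and 0 passed, with 2 above 0 and a median of -0.12. Without WT 3, 0 of the 5 were above 0 and the median was -0.58. Thbs4, which is linked to nerve injury pain, read 262, 232 and 62.3 in the controls against 336, 228 and 37.1 in the knockouts, low in both libraries numbered 3. Comp, also called thrombospondin-5, had the smallest p of the list, with a log2 fold change of -0.86 (SE 0.53). Thbs3 followed with 0.81 (SE 0.75) and Thbs1 with 0.49 (SE 1.01), values that turned to -0.07 and -0.58 without WT 3.

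Among receptor partners, NMDA receptor subunits had 2 of 7 genes above 0 and a median of -0.43 (-0.24 without WT 3). Grin3a was the one whose groups did not overlap, reading 630.0, 419.9 and 488 in the controls against 758, 773 and 756 in the knockouts. That is 1 of 7 genes higher without overlap, where 4.63% of all genes were. Grin2b read 16.8, 11.9 and 210.5 in the controls against a mean of 11.1 in the knockouts, so WT 3 stood far above all other libraries. Its log2 fold change was -1.90 (SE 1.22) with WT 3 and -0.63 without it, and that of Grin2d was -0.48 (SE 0.37) and -0.24. AMPA receptor subunits had 4 of 4 above 0 and a median of 0.23, with 0.52 (SE 0.29) for Gria4, 0.41 for Gria1, 0.05 for Gria2 and 0.04 for Gria3. Without WT 3, 3 of the 4 were above 0, with 0.23 for Gria4, 0.24 for Gria2 and -0.03 for Gria3. None of these 11 genes passed.

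Of 5 other known partners, 4 were above 0, the median was 0.11 and 0 were called. Without WT 3, 2 were above 0 and the median was -0.01. For Kcnma1, the BK potassium channel, the log2 fold change was 0.75 (SE 0.39), and for Prnp, the prion protein, 0.59 (SE 0.48). Without WT 3 these were 0.37 and -0.01, as Prnp read 15265, 15179 and 4400.1 in the controls against 13278 to 16310 in the knockouts. Lrp1, a trafficking receptor for α2δ-1, averaged 4101 ± 1013 in controls and 4373 ± 809 in knockouts (SD, n = 3 per group).

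**Figure D5:**
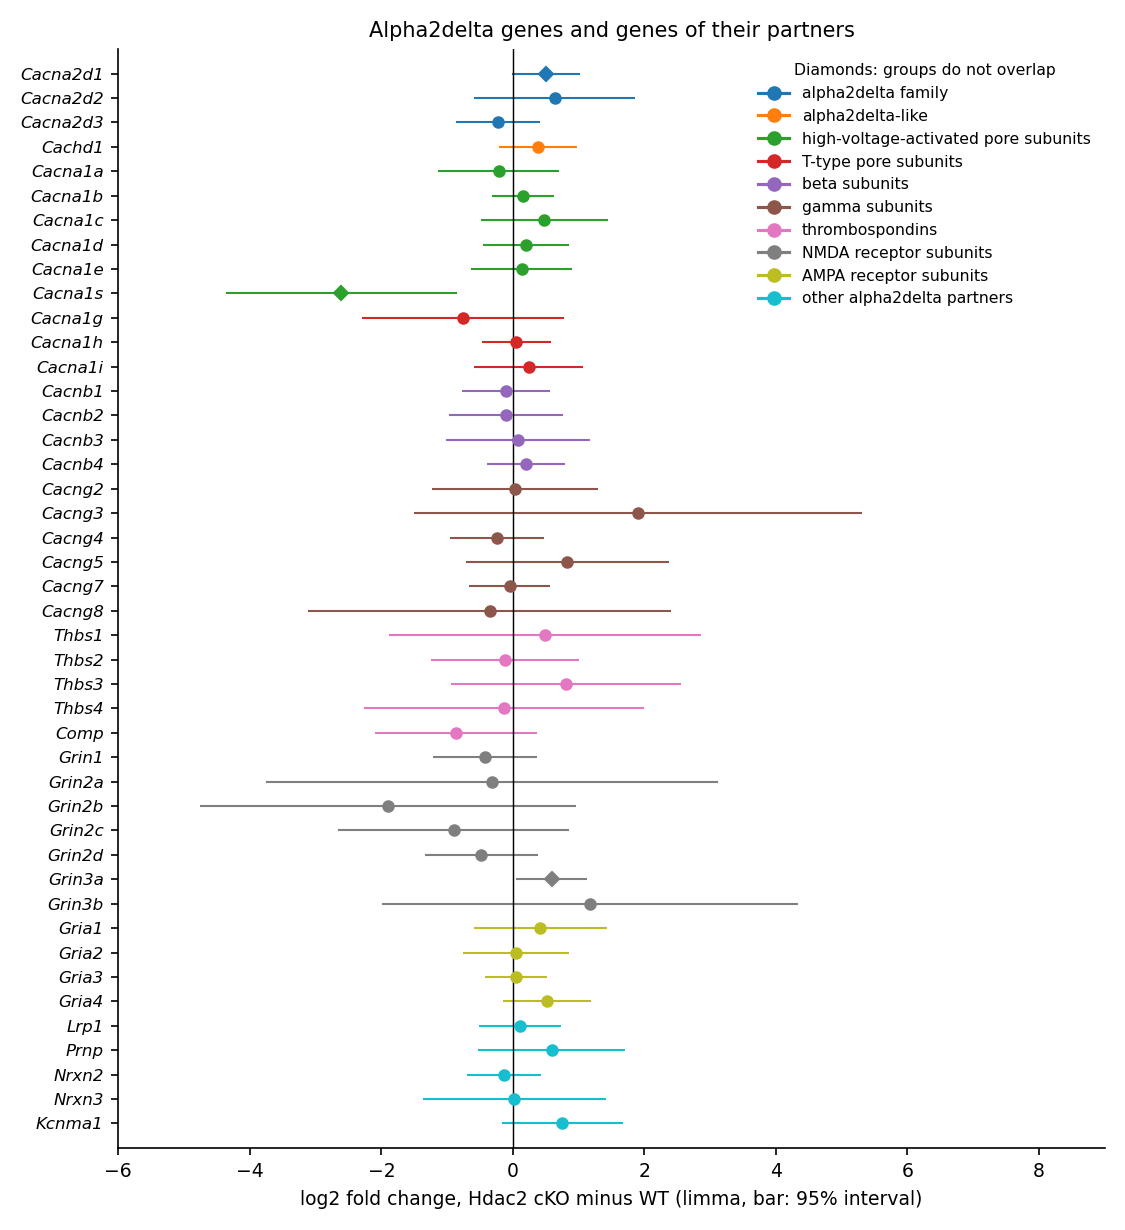
Log2 fold change, Hdac2 cKO minus WT, with 95% confidence interval (limma) of each tested α2δ gene and partner gene, coloured by list; diamonds mark genes whose groups do not overlap. Those are Cacna2d1 (0.50) and Grin3a (0.59), higher in the knockout as were 4.63% of all genes, and Cacna1s (-2.61), lower as were 3.91%.

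Genes of the release machinery, on which presynaptic α2δ acts, had 14 of 18 members above 0 and a median of 0.20, with 0 called. Without WT 3, 10 of 18 were above 0 and the median was 0.06. Groups did not overlap, higher in the knockout, for 5 (Slc17a6, Syt1, Stx1a, Rims1 and Pclo), against 4.63% of all genes, and lower for Cplx2, against 3.91%. Slc17a6, the vesicular glutamate transporter of most sensory neurons, read 6714, 4818 and 4276 in the controls against 7281, 7449 and 6956 in the knockouts. Its WT libraries fell in the same order as those of Cacna2d1, and its log2 fold change was 0.48, close in size. Syt1, a calcium sensor of release, had a log2 fold change of 0.36 and Cplx2, a complexin, one of -0.48 (-0.24 without WT 3).

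Genes whose values ran most like a member's over the 6 libraries were listed as a description. For Cacna2d1 these were Grm8 (r = 0.998), a metabotropic glutamate receptor, Gm7255, Dcun1d1, Eif4e, a translation initiation factor, and Uggt1 (r = 0.993). With 6 libraries such values are common: 776 of the genes tested had an r above 0.9 with Cacna2d1, 697 with Cacna2d2 and 620 with Cacna2d3. The closest gene to Cacna2d2 was Rtl8a (r = 0.989) and the closest to Cacna2d3 was Fbrsl1 (r = 0.995).

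Genes that overlap Cacna2d1, Cacna2d2 and Cacna2d3 had few reads beside theirs. Lrtm1 lies inside Cacna2d3 on the opposite strand and had 2.95 to 57.2 normalised read counts, against at least 1323 for Cacna2d3. Lrtm2 lies inside Cacna2d4 on the opposite strand and had 32.9 to 102.2, above Cacna2d4 in every library. As no strand setting is given, reads of Lrtm2 and Cacna2d4 that overlap cannot be told apart. The nearest protein-coding neighbour of Cacna2d1 at higher coordinates, Hgf, 179 kb away, averaged 198 ± 62.9 in controls and 262 ± 63.0 in knockouts (SD, n = 3 per group), and its groups overlapped.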

How the data were processed

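RNA-seq of dorsal root ganglia was analysed in 3 WT and 3 Hdac2 cKO libraries, grouped by sample title. The submitters' processing notes name HISAT2, SAMtools, featureCounts, DESeq2 and the mm10 build, while the strand setting was not given in the sources used here, nor were tool versions or the gene annotation. The deposited signal values were gene read counts divided by 1 size factor per library. Whole reads were recovered for 100% of values within 0.01 and used for count tests. Of 54532 identifiers, 54409 matched GENCODE M21. The labels do not say whether libraries came from single mice, so the p-values speak only of the spread among libraries, which may be technical.

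The main test was limma 3.58.1 (R 4.3.3) on log2 (value + 1) with trend and robust variances, for the 18410 genes that reached 10 in 3 or more libraries, two-sided, Benjamini-Hochberg adjusted, threshold 0.05. Single values per library had exact permutation tests. Alternatives were DESeq2 1.42.0, edgeR 4.0.16, limma-voom, other scalings, pseudocounts (0.5 and 5) and filters, array weights, replicate block, length, GC and sex terms, and libraries left out. The tests were run first on simulated data. The members and lists were chosen with earlier results of these data known. Genes named besides the members were those of short lists, those with the smallest p in longer lists, the most abundant markers, overlapping and neighbouring genes, and the 5 most alike; others, such as Cacna1a, Thbs4, Lrp1, Tnnc2 and the markers and release genes without overlap, were chosen after their values were seen. The list of other partners leaves out 1 gene that is not reported here.

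Same-numbered libraries deviated together across genes by 0.401, 0.147 and 0.422 (correlation of deviations from group means), each over 0.1, so library numbers were taken as pairs. Hdac2 cKO 2, however, deviated more with WT 1 (0.342) than with WT 2 (0.147). Y-linked genes were expressed in WT 3 but not in Hdac2 cKO 3. The pairing rests on the data, not the labels, and is uncertain.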

Additional observations from a re-analysis of the deposited data

How the results depend on the processing

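Cacna2d1 and Cacna2d3 kept their direction and stayed short of the threshold in all 22 other settings, and 0 members were called in any. For Cacna2d1, whose groups did not overlap, settings that left out, paired or weighted libraries could not turn the direction. Cacna2d2 turned to -0.39 with array weights and to -0.18 without both libraries numbered 3; array weights rest the WT mean mostly on WT 2, and otherwise the cause was not tested. With the replicate block limma gave adjusted p of 0.674, 0.701 and 0.731 for Cacna2d1, Cacna2d2 and Cacna2d3, and it changed no limma call. Leaving out 1 library at a time gave log2 fold changes from 0.34 to 0.66 for Cacna2d1, from 0.06 to 1.13 for Cacna2d2 and from -0.45 to -0.10 for Cacna2d3. It gave differences in share from -2.30 to 9.75 percentage points for Cacna2d2, against 3.56 with all libraries, and from -0.0473 to 0.0409 for Cacna2d4. Without both libraries numbered 3 the Cacna2d2 share difference was -4.98. Hdac2 passed with DESeq2 (log2 fold change -2.54, adjusted p = 1.8e-08), DESeq2 with replicate block (-2.49, adjusted p = 4.9e-20) and array weights (-2.13, adjusted p = 0.00173). The count of genes called over the whole table was 0 with limma, 25 with DESeq2, 77 with DESeq2 and replicate block, 567 with array weights and 5 without both libraries numbered 3. Exact tests of 3 libraries against 3 cannot go below 0.1, and with fewer libraries or with pairs the smallest p is larger. The few reads of Cacna2d4 limit what can be said of it. Leaving out WT 3 for partner genes and lists was chosen after seeing the data. It turned the log2 fold changes of Cacna1a (0.19), Cacna1i (-0.0681), Cacnb2 (0.13), Cacnb4 (-0.0454), Thbs1 (-0.58), Thbs3 (-0.0669), Gria3 (-0.0332) and Prnp (-0.0088). It also turned the list medians of T-type pores (-0.0681), γ genes (0.0427), other partners (-0.0088), C-low-threshold mechanoreceptors (-0.0067), endothelial and mural cells (-0.24), macrophages (-0.16) and erythroid cells (-0.19), and the difference in the log2 ratio of Cacna2d1 to Cacna2d2 (0.27).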
